A study of Mus musculus with 24 samples.

Results

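The genes described here are the machinery of endoplasmic reticulum (ER)-associated degradation, the 3 Derlins included: 37 genes of the 16935 that could be tested, chosen by name with no threshold on a measured value, though with earlier results of these data known. A probe counted for a gene when the transcript it was designed on belongs to that gene. All 37 genes had at least 1 probe (58 probes in all, of which 19 genes had 1, 15 had 2 and 3 had 3), and all 37 passed the filter on dim probes. The brightest probe stood for each gene, and every probe of Derl1, Derl2 and Derl3 is described. Of the probes used, 36 of 37 were well above background on all 24 arrays, and the remaining one, for Edem1, lacked a value on 1 array.

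Total RNA from the cerebellum of C57BL/6 mice was measured on 24 single-colour microarrays, 1 per sample. Controls carried floxed alleles without Cre (Derlin-1flox/flox or Derlin-2flox/flox), and knockout (KO) mice carried the same alleles with a Cre recombinase under the nestin promoter, which acts in neural progenitors, so that neurons and most glia descend from recombined cells while microglia and blood vessel cells do not. The Derlin-2 line and the numbered Derlin-1 series each held 4 groups of 2 arrays: control and KO with water as vehicle, and control and KO with 200 mg/kg 4-phenylbutyrate (4PBA), a chemical chaperone, injected intraperitoneally each day from day 14 to day 28, when cerebella were taken. A lettered Derlin-1 series held 4 more groups of 2, in which arrays without 4PBA in their titles carry no mention of vehicle and are called untreated. Vehicle and untreated arrays of the Derlin-1 line together are called arrays without 4PBA. Nothing states that the 2 arrays of a group came from separate animals or litters, so p-values measure only the spread between these arrays, which may be technical. Each series lay on its own slide, with controls always in the first columns, KO in the last, and 4PBA in the second row, so position on the slide and group cannot be told apart. In bulk tissue, fewer cells of a type and less RNA per cell cannot be told apart either.

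ER-associated degradation removes misfolded proteins from the ER. Lectins and mannosidases that read and trim N-glycans mark a misfolded glycoprotein, a membrane complex built around the ubiquitin ligase Hrd1 (Syvn1) and its scaffold Sel1l moves it into the cytosol and ubiquitinates it, the ATPase p97 (Vcp) extracts it, and shuttle factors carry it to the proteasome. The Derlins are multi-spanning ER membrane proteins related to rhomboid proteases that take part in this export. Part of the machinery is itself under control of the unfolded protein response, the transcriptional programme that ER stress sets off.

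Promoters are shown for the 3 members that rose most in Derlin-1 KO cerebellum (values below), since these moved together. They are the 250 bases before the transcription start from RefSeq, in build GRCm38.p6, 5′ to 3′ on the gene's strand, at chr10:75893148-75893397 (plus strand) for Derl3, chr8:94386179-94386428 (plus strand) for Herpud1 and chr6:108828391-108828640 (plus strand) for Edem1. Capitals mark matches to the motifs named in the next paragraph.
Derl3: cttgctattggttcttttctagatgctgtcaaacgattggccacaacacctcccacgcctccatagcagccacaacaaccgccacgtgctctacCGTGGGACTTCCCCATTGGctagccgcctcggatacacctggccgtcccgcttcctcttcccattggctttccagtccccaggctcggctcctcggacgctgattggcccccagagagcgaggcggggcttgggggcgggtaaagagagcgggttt
Herpud1: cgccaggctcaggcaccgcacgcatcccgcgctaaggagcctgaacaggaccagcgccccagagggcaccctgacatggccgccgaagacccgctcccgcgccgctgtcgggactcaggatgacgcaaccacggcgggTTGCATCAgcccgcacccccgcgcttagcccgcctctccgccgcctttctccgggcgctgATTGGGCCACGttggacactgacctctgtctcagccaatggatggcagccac
Edem1: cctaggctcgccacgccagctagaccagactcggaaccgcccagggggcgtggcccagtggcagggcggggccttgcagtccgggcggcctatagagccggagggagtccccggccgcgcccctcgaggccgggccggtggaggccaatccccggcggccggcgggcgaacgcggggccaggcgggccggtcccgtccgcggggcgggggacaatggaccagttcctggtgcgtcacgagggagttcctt

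The motifs searched, on both strands of the 250 bases before to 50 after each start, were the ER stress response element (ERSE, CCAAT and CCACG with 9 bases of any kind between them), the related ERSE-II (ATTGG, 1 base of any kind, CCACG), the core of the unfolded protein response element (UPRE, TGACGTGG) and the core of a C/EBP-ATF element (TTGCATCA). Derl3 held an ERSE on the opposite strand at bases -156 to -138 from the start. Syvn1 held an ERSE at -44 to -26, reading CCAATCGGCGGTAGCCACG. Herpud1 held an ERSE-II at -52 to -42 and a C/EBP-ATF core at -112 to -105, which do not overlap. Of the 36 promoters found for 31 members, 5.56% held an ERSE, against 0.119% (39) of all 32851 promoters in the same RefSeq table. An ERSE-II stood in 2.78% of member promoters and 0.0365% of all, a UPRE core in 5.56% (Ube2j1 and Vcp) and 0.676%, and a C/EBP-ATF core in 2.78% and 0.895%. These are matches of letters in a fixed window, and Edem1 had none.

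A level here is the log2 intensity of a probe minus the 75th percentile of its array, so 0 is the brightness of a probe at that percentile and a step of 1 is a factor of 2. Levels of different probes are not compared. Of the targeted genes, Derl1 was read by 1 probe. In the numbered Derlin-1 series its level was 0.89 and 0.94 in vehicle controls, 0.89 and 0.70 in vehicle KO, 1.22 and 0.76 in 4PBA controls, and 0.94 and 0.88 in 4PBA KO. In the lettered series it was 1.22 and 0.84 in untreated controls, 0.14 and 0.84 in untreated KO, 1.17 and 0.77 in 4PBA controls, and 0.64 and 0.93 in 4PBA KO. Of the 8 KO arrays, 5 lay within the range of the 8 controls (0.76 to 1.22) and 3 lay below it, 1 untreated array by the most. The difference was -0.33 (SE 0.15; adjusted p = 0.178, limma) without 4PBA and -0.13 (SE 0.15; adjusted p = 0.772) with it. The first value rested on the untreated KO arrays of the lettered series: it was -0.15 (SE 0.13; adjusted p = 0.599) without the Derlin-1 array labelled KO a and -0.503 (SE 0.13; adjusted p = 0.0241) without KO b. The labels do not say which exons are floxed or where the probe lies, so a probe outside the deleted part would check nothing. In the Derlin-2 line Derl1 lay between 0.90 and 1.23 on all 8 arrays.

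Derl2 was read by 2 probes. With the brighter one, Derlin-2 vehicle controls stood at 1.43 and 1.54 and 4PBA controls at 1.58 and 1.40. The Derlin-2 array labelled KO vehicle 1 stood at 1.72, above all 4 controls, while the other vehicle KO array stood at 0.48 and the 4PBA KO arrays at 0.18 and 0.24. The second probe showed the same split, with -0.57 and -0.47 in vehicle controls, -0.40 and -1.97 in vehicle KO, -0.41 and -0.54 in 4PBA controls, and -2.11 and -2.40 in 4PBA KO. The Derlin-2 array labelled KO vehicle 1 thus went against its label in Derl2, and the main Derlin-2 results that rest on it are given with and without it. With it, Derl2 differed by -0.38 (SE 0.28; adjusted p = 0.792) in vehicle mice. KO vehicle 1 was singled out on these same Derl2 values, which fixes the outcome without it, so only effect sizes are given. With the single remaining vehicle KO array the difference was -1.001, and it was -1.45 on the second probe. With 4PBA the brighter probe differed by -1.28 (SE 0.28; adjusted p = 0.179) and the second by -1.79 (SE 0.33; adjusted p = 0.0543), with all KO arrays below all controls. In the Derlin-1 line Derl2 showed no such split: levels ran from 1.58 to 2.13 over 16 arrays, with KO minus control at 0.01 (SE 0.20) without 4PBA.

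Derl3, a Derlin whose transcript is known to rise with ER stress, had 1 probe and the widest span of the 37 genes. In the numbered Derlin-1 series it stood at -2.87 and -2.29 in vehicle controls, -0.32 and -0.30 in vehicle KO, -2.70 and -3.14 in 4PBA controls, and -0.63 and -0.30 in 4PBA KO. In the lettered series it stood at -2.01 and -1.69 in untreated controls, -0.09 and 0.37 in untreated KO, -2.54 and -2.18 in 4PBA controls, and 0.17 and -2.27 in 4PBA KO. In the Derlin-2 line it stood at -3.01 and -2.75 in vehicle controls, -1.85 and -0.61 in vehicle KO, -3.03 and -2.91 in 4PBA controls, and -1.93 and -1.96 in 4PBA KO. KO arrays lay above all their matched controls in 11 of 12 cases. The exception was the Derlin-1 array labelled KO 4PBA b, at -2.27 between its controls. That array also stood at control level for most other members called in Derlin-1 KO without 4PBA, as described under 4PBA. The main results that rest on it are given with and without it.

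**Figure D1:**
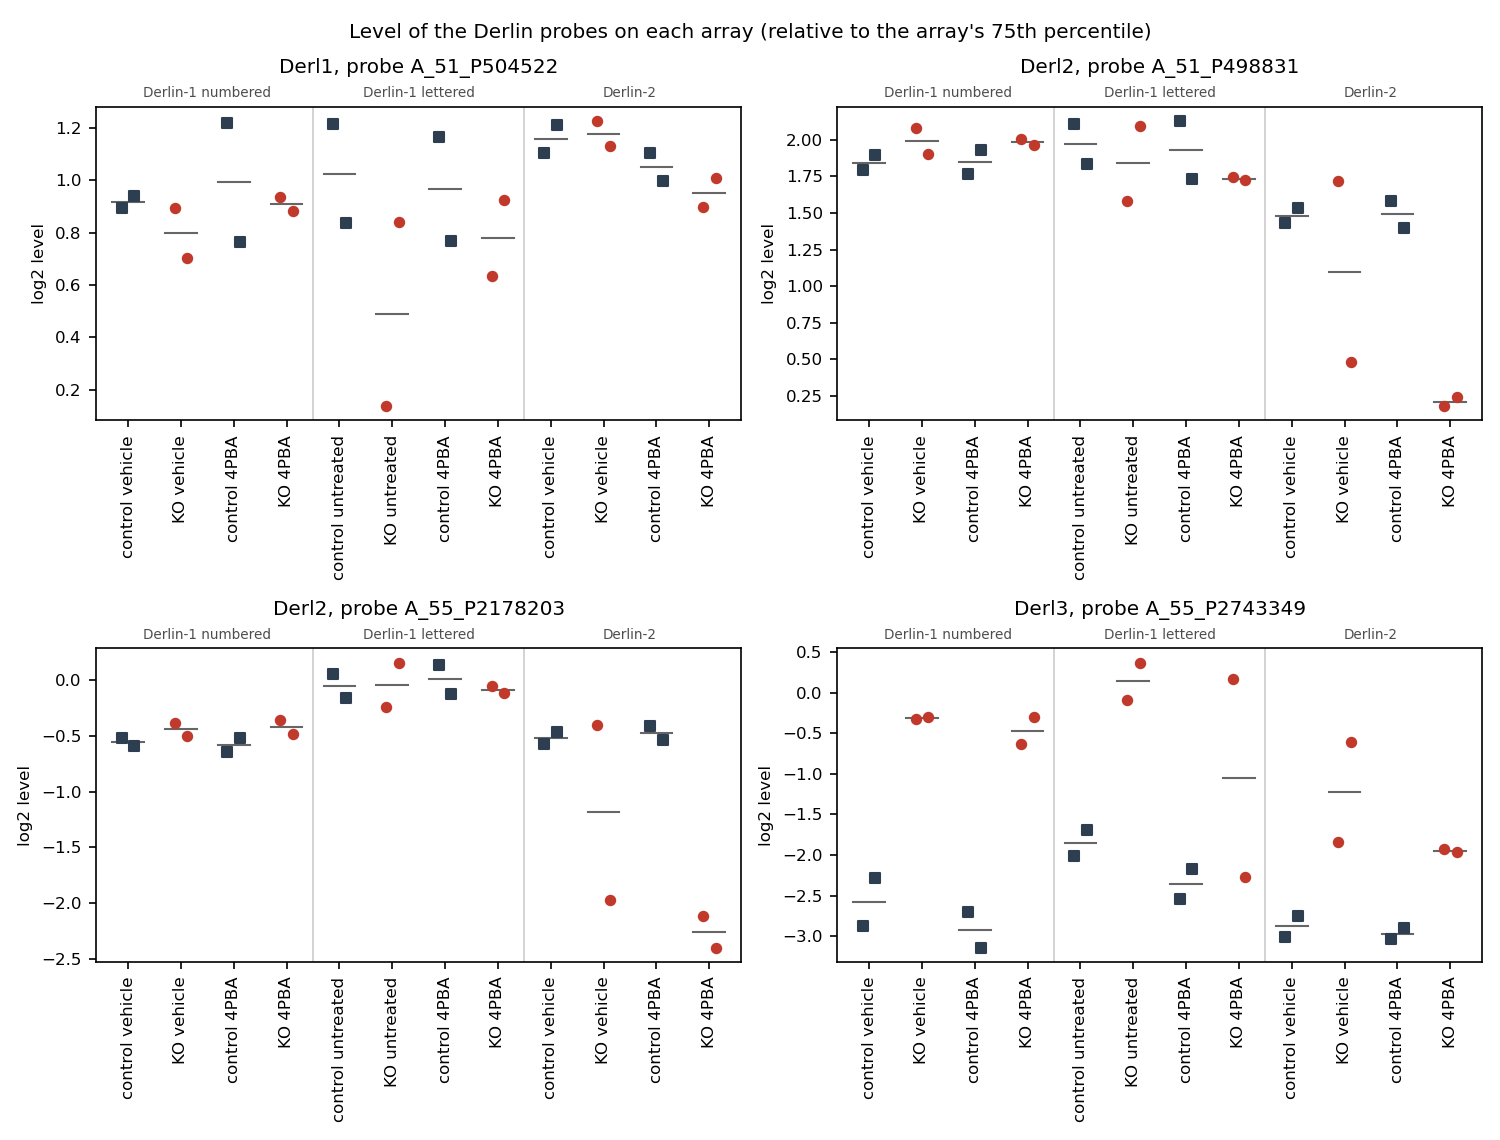
Level of each Derlin probe (y axis, log2 intensity minus the array's 75th percentile) on all 24 arrays by group (x axis), with squares for controls, circles for KO and a line at the mean of the 2 arrays. Derl2 is low in 3 of 4 Derlin-2 KO arrays (0.18 to 0.48 on the brighter probe, against 1.40 to 1.58 in controls), and Derl3 is above its matched controls in 11 of 12 KO arrays.

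In Derlin-1 KO cerebellum without 4PBA, 8 members rose and 1 fell. Derl3 was 4.37-fold higher in KO than in control, Herpud1 2.51-fold and Edem1 1.93-fold, while Sel1l, Selenos, Syvn1, Ufd1 and Faf1 rose by 0.22 to 0.36 on the log2 scale and Vcp fell by 0.39. A gene was called at a Benjamini-Hochberg adjusted p below 0.05 over all genes tested, and 9 of 37 members were called where 10.6% of all 16935 genes were called in this comparison. Called higher were 8 members, against 5.26% of all genes, and called lower was 1, against 5.37%. The direction of the members as a whole was mixed: 22 lay higher and 15 lower, with a median log2 difference of 0.02 beside -0.01 over all genes.

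Among the ubiquitin ligases and their scaffold, 3 of 8 members were called, all higher. Herpud1, a membrane protein with a ubiquitin-like domain that joins the Hrd1 complex and is itself short-lived, stood at 2.69 and 2.55 in numbered vehicle controls and 3.91 and 3.69 in KO, and at 2.29 and 2.41 in lettered untreated controls and 3.83 and 3.82 in KO. The groups did not overlap in either series, and the difference was 1.33 (SE 0.16; adjusted p = 0.00203). Sel1l, the scaffold that holds Hrd1 to its lumenal partners, stood at 4.44 and 4.45 against 4.86 and 4.72 in the numbered series and at 3.97 and 4.10 against 4.30 and 4.50 in the lettered one, a rise of 0.36 (SE 0.10; adjusted p = 0.0367). Syvn1, the Hrd1 ligase, stood at 3.91 and 3.87 against 4.21 and 4.12 and at 4.00 and 4.20 against 4.40 and 4.60, a rise of 0.34 (SE 0.08; adjusted p = 0.0164). Herpud1, Sel1l and Syvn1 were thus higher in all 4 KO arrays than in both controls without 4PBA on the same slide. The other ligases were not called: Herpud2, the homologue of Herpud1, differed by -0.01, Ube4b, a chain-extending U-box ligase, by -0.06, and the membrane RING ligases Rnf5, Trim13 and Rnf139 by -0.09, -0.11 and -0.16.

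Among the 7 glycan readers and trimmers only Edem1 was called. Edem1, a mannosidase-like protein that speeds the disposal of misfolded glycoproteins, stood at -1.62 and -1.70 in numbered controls and -0.76 and -0.78 in KO, and at -1.18 and -1.10 in lettered controls and -0.20 and -0.07 in KO. The groups were far apart in both series, with a rise of 0.95 (SE 0.12; adjusted p = 0.00203). Its homologues Edem3 (0.08) and Edem2 (0.05), the mannosidase Man1b1 (0.02), the glycan-binding lectins Erlec1 (0.08) and Os9 (-0.01), and the cytosolic glycanase Ngly1 (-0.06) were not called.

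Of p97 with its cofactors and membrane anchors, 4 of 9 members were called, 3 higher and 1 lower. Selenos, a membrane selenoprotein that tethers p97 to the ER, stood at 2.96 and 2.90 in numbered controls and 3.26 and 3.23 in KO, and at 3.22 and 3.01 in lettered controls and 3.59 and 3.37 in KO (0.34, SE 0.09; adjusted p = 0.0334). Ufd1, which with Nploc4 forms the ubiquitin-binding adaptor of p97, stood at 1.84 and 1.84 against 1.98 and 2.01 and at 1.65 and 1.57 against 2.11 and 1.88 (0.27, SE 0.07; adjusted p = 0.0263). Faf1, a p97 cofactor with ubiquitin-binding domains, stood at -0.61 and -0.53 against -0.40 and -0.48 and at -0.26 and -0.30 against 0.10 and -0.03 (0.22, SE 0.06; adjusted p = 0.0333). These rises were smaller than those of Derl3, Herpud1 and Edem1, but no KO array overlapped the controls without 4PBA on its slide.

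Vcp, the p97 ATPase itself, stood at 5.58 and 5.54 in numbered controls and 5.22 and 5.08 in KO, and at 4.89 and 4.85 in lettered controls and 4.45 and 4.56 in KO, a fall of 0.39 (SE 0.07; adjusted p = 0.00637). A second, dimmer Vcp probe on the same transcript did not show it: its group means were 1.60 ± 0.07 (SD, n = 2) in numbered controls and 1.77 ± 0.02 in KO, and 1.94 ± 0.14 and 1.95 ± 0.09 in the lettered series, a difference of 0.09 (SE 0.07; adjusted p = 0.551 in a fit over all probes kept). The fall of Vcp thus rests on 1 of its 2 probes. Of the members not called, Ubxn4 (0.22), the membrane selenoprotein Selenok (0.15), Nploc4 (0.04), Faf2 (0.0043) and Ubxn6 (-0.18) are further p97 partners.

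None of the 4 ubiquitin-conjugating enzymes and their recruiter was called: Ube2j1 differed by 0.13, Aup1, which recruits Ube2g2, by 0.02, Ube2g2 by -0.02 and Ube2j2 by -0.08. None of the 6 carriers and other factors was called either, with values from -0.20 for Bag6, a cytosolic chaperone that holds extracted substrates, to 0.21 for the deubiquitinase Atxn3. The shuttle factors Ubqln1 and Rad23b differed by 0.11 and 0.03, and the membrane proteins Jkamp and Tmub1 by -0.05 and -0.17. Arrays did not overlap within either series for 12 members (32.4%), against 23.8% of all genes: the 8 called higher and Ubxn4 among the higher ones, and Vcp, Bag6 and Rnf139 among the lower ones.

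**Figure D2:**
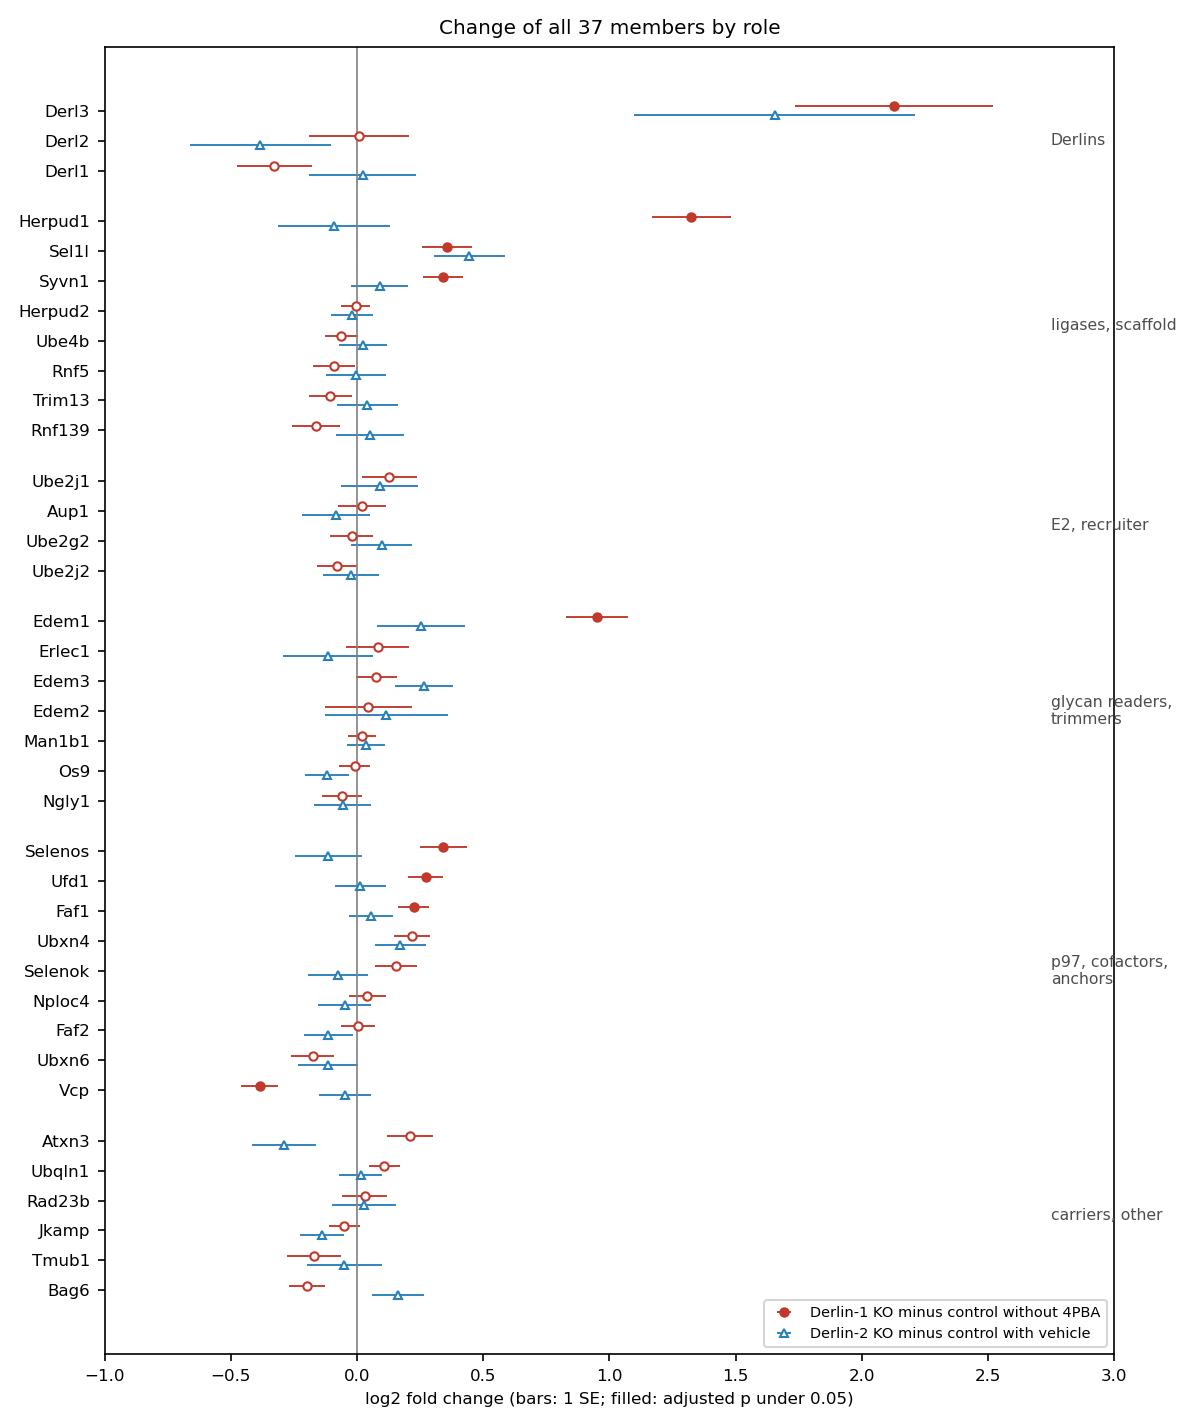
Log2 fold change, KO minus control (x axis, bars 1 SE), of all 37 members grouped by role (y axis), for Derlin-1 without 4PBA (circles) and Derlin-2 with vehicle (triangles); filled symbols have an adjusted p below 0.05. In Derlin-1 KO, Derl3 (2.13), Herpud1 (1.33) and Edem1 (0.95) stand apart from the other 34 members, which lie between -0.39 and 0.36; no Derlin-2 symbol is filled.

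The 9 differences had the same sign in both Derlin-1 series. Numbered and lettered values were 2.27 and 1.99 for Derl3, 1.18 and 1.47 for Herpud1, 0.89 and 1.01 for Edem1, and -0.41 and -0.36 for Vcp. Those of the smaller rises were 0.35 and 0.37 for Sel1l, 0.32 and 0.37 for Selenos, and 0.28 and 0.40 for Syvn1, while Ufd1 (0.15 and 0.39) and Faf1 (0.12 and 0.32) were larger in the lettered series. Second probes gave 1.39 for Herpud1, 0.82 for Edem1, 0.38 for Sel1l, 0.31 for Ufd1 and 0.17 for Faf1. Of the 18 members with several probes, 15 had probes of 1 sign and 3 did not (Rad23b, Ube4b and Vcp); another Rad23b probe read -0.90 (adjusted p = 0.101) where the probe used read 0.03. Taken alone, the numbered series called 0 members, where 0.0118% (2) of all genes were called, and the lettered series called 3 (Edem1, Herpud1 and Ufd1), where 3.54% (599) were. Leaving out any 1 of the 8 arrays left 4 to 9 members called, where 3.86% to 16.5% of all genes were called, and Derl3, Herpud1, Edem1 and Vcp were called each time; the count was 9 without the Derlin-1 array labelled KO b, with Derl1 called in place of Sel1l, and 4 or 5 without any other.

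**Figure D3:**
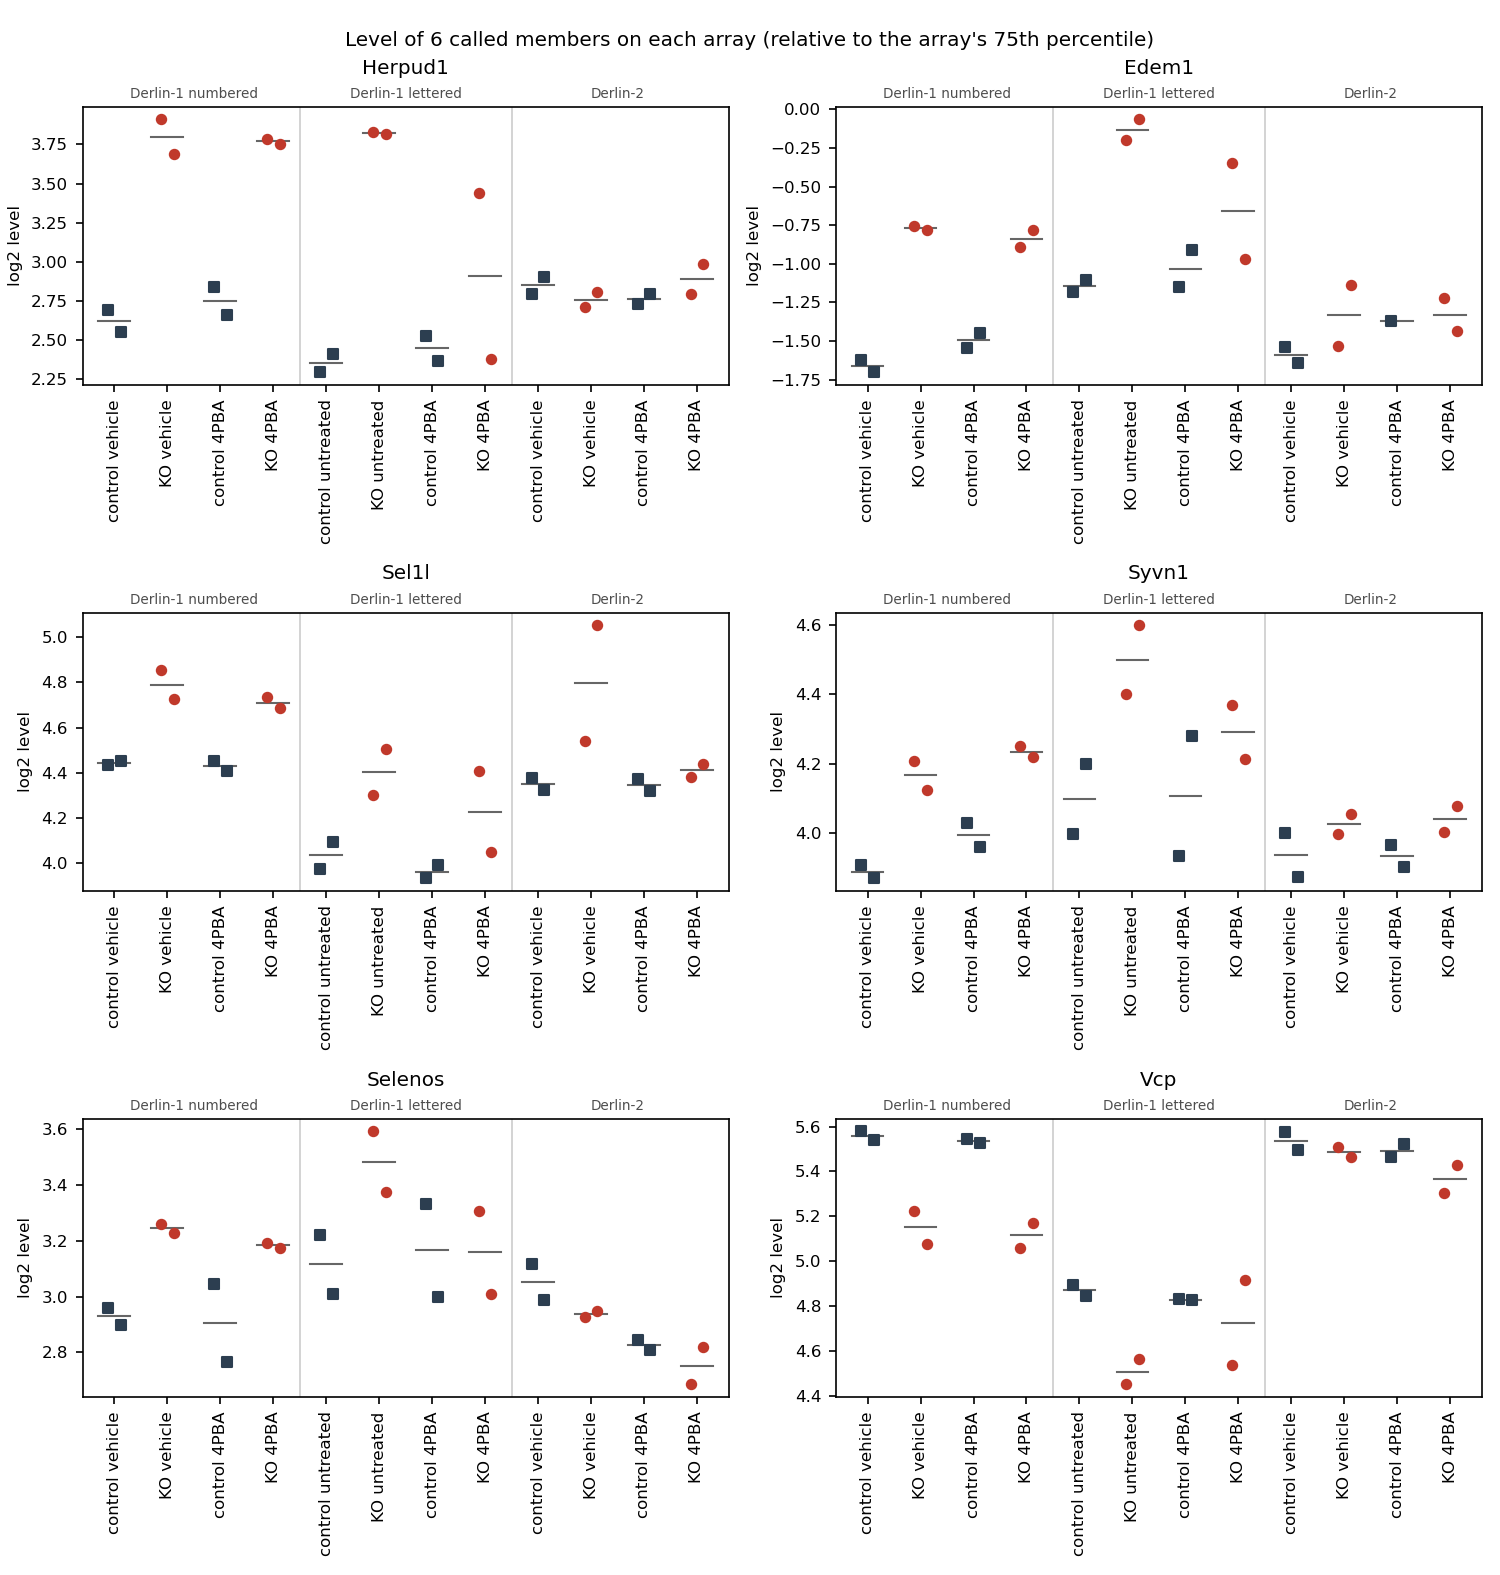
Level (y axis, log2 intensity minus the array's 75th percentile) of 6 members called in Derlin-1 KO without 4PBA, on all arrays by group (x axis), with squares for controls, circles for KO and a line at the group mean. Herpud1 and Edem1 are above both matched controls, and Vcp below both, in each Derlin-1 KO array except KO 4PBA b, and Edem1 lacks a value on 1 Derlin-2 control array with 4PBA.

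Of 35 further ER-associated degradation genes, 18 lay higher and 17 lower in Derlin-1 KO without 4PBA, with a median of 0.01. Called were 3 of 35, where 10.6% of all genes were called: Txndc11 (0.70, SE 0.09; adjusted p = 0.00203), a thioredoxin-domain protein that works with the Edem family, Uggt1 (0.30, SE 0.07; adjusted p = 0.0182), the glucosyltransferase that senses misfolded glycoproteins, and Rhbdd1 (-0.33, SE 0.09; adjusted p = 0.0377), an ER rhomboid protease. The unfolded protein response genes moved further: 24 of 24 lay higher and 21 were called, with a median of 0.82. The largest of these were Trib3 (3.32, SE 0.45), Atf3 (2.25, SE 0.44), Chac1 (2.19, SE 0.34), Sdf2l1 (1.80, SE 0.29) and Ddit3 (1.55, SE 0.21). Both lists were written with earlier results of these data known, so their direction is not independent evidence.

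Markers of other cells moved in the same comparison. Of 10 microglial genes, 7 were called, all higher, with a median of 1.24; the mean level of the list was 0.32 to 0.59 in the Derlin-1 controls without 4PBA and 1.28 to 1.56 in KO. Complement genes C1qa, C1qb and C1qc rose by 1.43 to 1.44, while the homeostatic marker P2ry12 differed by 0.24 (adjusted p = 0.471). Of 9 granule neuron genes, 4 were called lower (median -0.31), and 1 of 10 Purkinje cell genes was. Of 8 astrocyte and Bergmann glia genes, Gfap was called (1.25, SE 0.18), and 1 of 10 oligodendrocyte genes was called higher. No endothelial (of 5) or choroid plexus gene (of 4) was called. Of 4 plasma cell genes, which mark a cell type rich in ER machinery, only Jchain and Sdc1 were among the genes tested; Sdc1 fell by 1.12 and Jchain differed by 1.13 (adjusted p = 0.126). The part of these cell markers in the members' changes was not tested.

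With 4PBA, the same 9 genes kept their signs in Derlin-1 KO, but none of the 37 members was called, where 0.0472% (8) of all genes were called. Derl3 differed by 1.88 (SE 0.39; adjusted p = 0.0986), Herpud1 by 0.74 (SE 0.16; adjusted p = 0.0986), Edem1 by 0.52 (SE 0.12; adjusted p = 0.127) and Vcp by -0.26 (SE 0.07; adjusted p = 0.178). At an unadjusted p below 0.05 stood 7 members, against 12.8% of all genes. Herpud1 stood at 3.78 and 3.76 in numbered 4PBA KO against 2.84 and 2.66 in controls, and at 3.44 and 2.38 in lettered 4PBA KO against 2.53 and 2.37. Edem1 stood at -0.89 and -0.78 against -1.55 and -1.45, and at -0.35 and -0.97 against -1.15 and -0.91. In both genes 3 of the 4 KO arrays lay clear of their controls and the Derlin-1 array labelled KO 4PBA b lay among them. Arrays did not overlap in either series for 1 member, Sel1l (2.7%), against 6.49% of all genes.

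The Derlin-1 array labelled KO 4PBA b differed from the other 7 Derlin-1 KO arrays. The 9 called members were picked on the 4 KO arrays without 4PBA. On those arrays all 9 lay beyond both matched controls in the called direction, which that choice largely fixed. Of these 9, the other 3 4PBA KO arrays had 8 beyond both matched controls, and this array had 2 (Sel1l and Faf1). Its mean over the unfolded protein response list was 1.14, where the other 4PBA KO arrays stood at 2.08, 2.17 and 2.14 and 4PBA controls at 1.17 to 1.23. Its mean over the microglial list was 0.33, against 0.37 to 0.66 in 4PBA controls. This array was singled out by the values of these same members, and its group holds a single array without it, so only effect sizes are given. Without it and the Derlin-2 array labelled KO vehicle 1, Derl3 differed by 2.49 and Herpud1 by 1.01 in Derlin-1 KO with 4PBA. Edem1 then differed by 0.67, Sel1l by 0.36 and Vcp by -0.36.

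**Figure D4:**
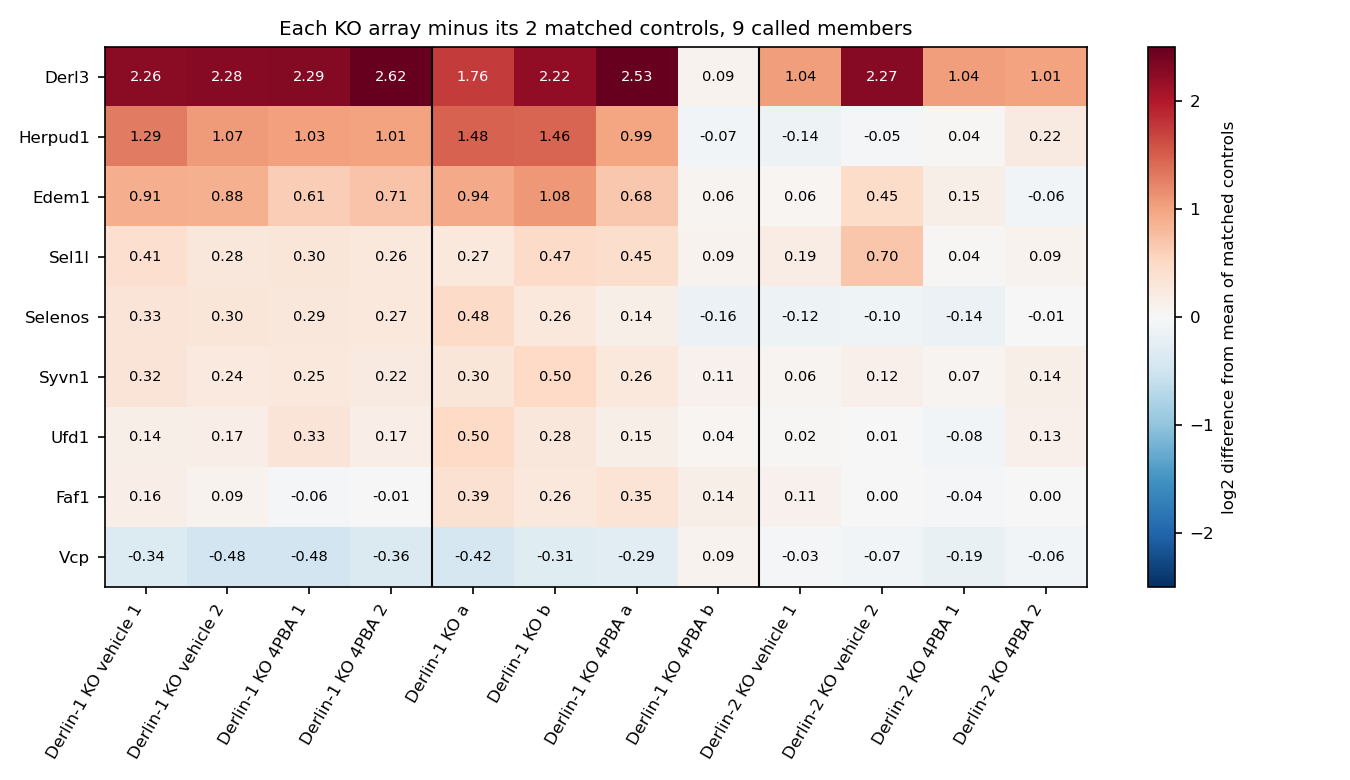
Difference of each KO array from the mean of its 2 matched controls (colour and printed number, log2 scale) for the 9 members called in Derlin-1 KO without 4PBA (y axis), by KO array (x axis). The Derlin-1 array labelled KO 4PBA b shows 0.09 for Derl3 and -0.07 for Herpud1 where the other Derlin-1 KO arrays show 1.76 to 2.62 and 0.99 to 1.48, and in all 4 Derlin-2 KO arrays Derl3 is above 0 while Herpud1 lies between -0.14 and 0.22.

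In the 2 arrays labelled Derlin-2 KO with vehicle, of which KO vehicle 1 had Derl2 above all 4 controls, no member was called, where 0.118% (20) of all genes were called; 4 members had an unadjusted p below 0.05, against 8% of all genes. Derl3 differed by 1.65 (SE 0.56; adjusted p = 0.455) and Sel1l by 0.45 (SE 0.14; adjusted p = 0.415). Sel1l stood at 4.38 and 4.32 in controls and 4.54 and 5.05 in KO. Herpud1 stood at 2.80 and 2.90 in controls and 2.71 and 2.80 in KO, a difference of -0.09 (SE 0.22), and Edem1 at -1.54 and -1.64 against -1.53 and -1.14, a difference of 0.25 (SE 0.17; adjusted p = 0.771). Derl3 and Sel1l were higher in both arrays, KO vehicle 1 included, than in both controls, whereas Herpud1 was not. The median over members was 0.01, and arrays did not overlap for 16 members (43.2%), against 46.2% of all genes.

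Without the Derlin-2 array labelled KO vehicle 1 and the Derlin-1 array labelled KO 4PBA b, Derl3 differed by 2.27 and Sel1l by 0.70 in Derlin-2 KO with vehicle. Edem1 then differed by 0.45 and Herpud1 by -0.05. The Derlin-1 array is not part of this comparison and acts only on the shared estimate of spread. Which of Derl2 and Derl3 was called changed with that array, so only effect sizes are given. Without KO vehicle 2 instead, Derl3 differed by 1.04 and Sel1l by 0.19. These values set a single KO array, assumed to vary like the other groups, against 2 controls. Derl3 in KO vehicle 1 was -1.85, above the controls at -3.01 and -2.75.

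With 4PBA, Derlin-2 KO again had no member called, where 0.136% (23) of all genes were called, and 2 members, Derl2 and Os9, had an unadjusted p below 0.05, against 4.70% of all genes. Derl3 differed by 1.02 (SE 0.56; adjusted p = 0.9998) with both KO arrays above both controls. Sel1l differed by 0.07, Herpud1 by 0.13 and Edem1 by 0.04, the last against 1 control array only because its spot was missing on the other. Os9, one of the glycan-binding lectins, differed by -0.24 (SE 0.09; adjusted p = 0.834). Of 36 members with all values, 22 did not overlap (61.1%, against 38.5% of all genes), 6 higher and 16 lower.

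The difference between the Derlin-1 and Derlin-2 KO effects without 4PBA, which share no arrays, was tested directly, and no member was called, where 0.0650% (11) of all genes were called; 6 members had an unadjusted p below 0.05, against 14.0% of all genes. Herpud1 had the smallest p of the members, with a Derlin-1 effect larger by 1.42 (SE 0.27; 95% confidence interval 0.83 to 2.003; adjusted p = 0.0974). Without the Derlin-2 array KO vehicle 1 and the Derlin-1 array KO 4PBA b the Herpud1 value was 1.37, with a single Derlin-2 vehicle KO array left. KO 4PBA b is part of neither effect and acts only on the shared estimate of spread. Edem1 differed by 0.70 (interval 0.24 to 1.16; adjusted p = 0.184), Atxn3 by 0.50 (0.17 to 0.83; adjusted p = 0.185) and Vcp by -0.34 (-0.61 to -0.06; adjusted p = 0.25). For Derl3 the interval was -0.98 to 1.93 around 0.47, and for Sel1l -0.46 to 0.28 around -0.09, so for these 2 genes no difference between the lines was detectable with this number of arrays. Without the same 2 arrays the value for Derl3 turned to -0.15 and that for Sel1l was -0.34. Edem1 then differed by 0.50, Atxn3 by 0.61 and Vcp by -0.32. The lines also differ in slide.

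4PBA itself gave no member a call in any of 4 comparisons, in which between 0.0295% and 0.136% of all genes were called. In Derlin-1 controls 0.0295% (5) of genes were called, in Derlin-1 KO 0.0354% (6), in Derlin-2 controls 0.130% (22) and in Derlin-2 KO 0.136% (23). At an unadjusted p below 0.05 stood 0 members in Derlin-1 controls (2.1% of all genes) and 0 in Derlin-2 controls (5.16%), and 2 each in Derlin-1 KO (Edem1 and Herpud1; 6.66%) and Derlin-2 KO (Derl2 and Sel1l; 9.21%). In Derlin-1 KO, Herpud1 differed by -0.47 (SE 0.16; adjusted p = 0.717), Derl3 by -0.67 (SE 0.39; adjusted p = 0.799) and Edem1 by -0.30 (SE 0.12; adjusted p = 0.734) with 4PBA against without. In the numbered series these were -0.03, -0.16 and -0.07, and in the lettered series, which holds the Derlin-1 array labelled KO 4PBA b, -0.91, -1.19 and -0.53. Without that array and the Derlin-2 array labelled KO vehicle 1 they were -0.21, -0.06 and -0.14. Without the Derlin-1 array labelled KO 4PBA a instead, 2 members were called lower with 4PBA, Herpud1 (-0.74, SE 0.08; adjusted p = 0.0012) and Derl3 (-1.28, SE 0.26; adjusted p = 0.0322), where 1.14% (193) of all genes were called. Herpud1 was then also called in the test of whether the KO effect differed with 4PBA (-0.85, SE 0.11; adjusted p = 0.0106), where 0.183% (31) were. In these values the lettered 4PBA KO group is KO 4PBA b alone, the array at control level. With all arrays, that test called no member (0.0118% of all genes, 2, were called); its values were -0.58 (95% interval -1.06 to -0.11) for Herpud1 and -0.44 (-0.81 to -0.06) for Edem1, the 2 members with an unadjusted p below 0.05, against 2.67% of all genes. Without KO 4PBA b these were -0.32 (SE 0.11) and -0.28 (SE 0.14; adjusted p = 0.99995 for both), and again no member was called (0.0295% of all genes, 5, were). These comparisons share arrays with the KO comparisons above.

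In Derlin-2 KO, 4PBA arrays lay below vehicle arrays without overlap for 23 of 37 members and above for none; 62.2% of members did not overlap, against 47.9% of all genes (33.3% lower and 14.6% higher). The median over members was -0.10, beside -0.06 over all genes. These values include the Derlin-2 array labelled KO vehicle 1, and the count was not repeated without it. With 1 array left out at a time the median ran from -0.1309 to -0.075. With all arrays, the largest of these differences were in Derl2 (-0.89, SE 0.28; adjusted p = 0.334), Derl3 (-0.72, SE 0.56) and Sel1l (-0.38, SE 0.14; adjusted p = 0.411). Without the Derlin-2 array labelled KO vehicle 1 and the Derlin-1 array labelled KO 4PBA b, Derl3 differed by -1.34, Sel1l by -0.64 and Derl2 by -0.27. These values rest on a single vehicle KO array, and KO 4PBA b is not part of this comparison. Without the Derlin-2 array labelled KO vehicle 2 instead, Derl2 differed by -1.51. That value sets the 4PBA KO arrays against KO vehicle 1 alone, whose Derl2 level lay above all 4 controls. In Derlin-2 controls 10 of 36 members did not overlap (27.8%, against 42.2% of all genes), with a median of -0.04.

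Members differed widely in how far they varied across the 12 groups. The range of a member's group means had a median of 0.61, beside a median pooled SD within groups of 0.11, and the spans below include the differences between slides. The widest were Derl3 (3.11), Derl2 (1.78), Edem1 (1.53), Herpud1 (1.47), Edem2 (1.21) and Vcp (1.05), and the narrowest were Ube2g2 (0.24) and Ube2j2 (0.20), both ubiquitin-conjugating enzymes. Derl3, Edem1 and Herpud1 had their highest group mean in the lettered untreated Derlin-1 KO (0.14 ± 0.33, -0.13 ± 0.10 and 3.82 ± 0.01; SD, n = 2), as did Selenos (3.48 ± 0.15) and Syvn1 (4.50 ± 0.14). Vcp had its lowest there (4.51 ± 0.08), but its lettered controls (4.87 ± 0.03) were also below every numbered and Derlin-2 group. Edem2 group means ran from -4.20 in Derlin-2 4PBA controls to -2.99 in lettered untreated Derlin-1 KO, and no comparison called it. Sel1l was highest in the Derlin-2 vehicle KO (4.80 ± 0.36).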

How the data were processed

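Cy3-labelled total RNA of 24 cerebellum samples was hybridised to Agilent arrays, and spots were read with Agilent Feature Extraction 10.7.1.1, per the submitters' processing notes. The deposited value of each spot was the authors' processed signal, a linear intensity after background correction, per the file headers; no normalization between arrays is recorded. The authors' series table holds the same intensity values, within a log2 difference of 1.74e-06 at probes with 1 spot, and served as an alternative. The headers name an older genome build than GRCm38.p6, so coordinates are given only for promoters, from RefSeq.

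Control spots were left out (59305 spots and 56605 probes remained), as were 52 to 637 outlier spots per array. No spot was saturated. On each array 57.7% to 68.4% of spots exceeded background by the software's call, with a 75th percentile of 890 to 1169. A probe took its gene from the transcript accession in the files through RefSeq's gene table (32994 probes named, 23611 not). Log2 intensity minus the array's 75th percentile was used. A probe was kept if both arrays of 1 group or more exceeded background (38115 probes), and the brightest probe per gene gave 16935 genes. limma 3.58.1 in R 4.3.3 (with data.table, version 1.17.8) fitted 12 group means over all 24 arrays, with 12 residual and 2.13 prior degrees of freedom. Derlin-1 comparisons averaged the differences within each series. The 10 comparisons were tested two-sided with limma's moderated test and Benjamini-Hochberg adjustment over all genes, with 95% confidence intervals before adjustment. Precision is limited by having 2 arrays in each group. The script was tested on simulated data.

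Members, gene lists and cell markers were chosen with earlier results of these data known. All members are accounted for; those called in any comparison and every Derlin probe are given in full. Of the further degradation genes at most 6 called were named, and of the unfolded protein response genes the 5 that changed most among those called; microglial genes and Gfap were named after their values were seen. Alternatives were other normalizations, filters, probe rules, the series table, fewer arrays, a replicate block and each series alone.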

Additional observations from a re-analysis of the deposited data

Results flagged for a closer look

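Bag6, the cytosolic chaperone that holds extracted substrates, lay in opposite directions in the 2 Derlin-2 KO comparisons. With vehicle it differed by 0.16, with both KO arrays (3.99 and 4.06) above both controls (3.98 and 3.74), and with 4PBA by -0.16, with both KO arrays (3.81 and 3.85) below both controls (3.92 and 4.06). The difference between these effects was not tested, and with vehicle the KO array at 3.99, which exceeded the higher control by a small margin, is the one labelled KO vehicle 1, whose Derl2 level went against its label. Without that array and the Derlin-1 array labelled KO 4PBA b the vehicle difference was 0.20 (SE 0.13; adjusted p = 0.664). Of the 37 members, 1 showed such a pattern over the 4 pairs of comparisons examined. Groups of 2 arrays were too small for the test of outlying values within a group.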

How the results depend on the processing

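The precision is limited by 2 arrays per group. In Derlin-1 KO without 4PBA, 9 members were called, where 10.6% (1800) of all genes were. This became 4 when only the arrays of the line were fitted, where 4.07% (690) of all genes were called. It was 0 with the numbered series alone (0.0118% of all genes, 2) and 3 with the lettered alone (3.54%, 599). When every probe was tested it was 5, a setting for which no share is given. Under quantile normalization the count was 11, where 9.2% (1558) of all genes were called. With normexp on the median signal it was 10, where 9.87% (1672) were. The median signal was chosen after seeing the files because they hold no mean signal column, and normexp on the mean signal was not run. Leaving out 1 array at a time gave 4 to 9 members in this comparison, 0 to 4 for Derlin-1 KO with 4PBA, 0 to 2 for Derlin-2 KO with vehicle and for 4PBA in Derlin-1 KO, 0 to 1 for 4PBA in Derlin-2 KO and for the Derlin-1 KO effect with 4PBA minus without, and 0 to 0 in the other 4 comparisons. Leaving out the Derlin-2 array KO vehicle 1 and the Derlin-1 array KO 4PBA b leaves a single array in each of their groups. These arrays were singled out by member values, so calls without both are not counted here.

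Replicate numbers did not pair the samples: replicate differences of groups on 1 slide correlated between -0.16 and 0.40, and not every pair was over 0.1. With the replicate block, 1 member (Herpud1) was called for the Derlin-1 against the Derlin-2 effect, where 0.39% (66) of all genes were. In Derlin-1 KO without 4PBA it called 10 members, where 12.9% (2187) of all genes were called. The other settings kept each count within a factor of 1.5.

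Of the recomputed fold changes of named members, 307 kept direction and side of the threshold, 58 lost a call, 10 gained one and 17 changed sign; none of the sign changes was in a called gene. The lost calls were mostly of Sel1l (13), Faf1 (12), Selenos (11), Ufd1 (10) and Syvn1 (6). The sign changes were in Derl1 and Derl2. Derl2 in Derlin-1 KO with 4PBA became 0.0047 under quantile normalization and 0.14 with the numbered series alone, and ranged from -0.13 to 0.0696 with 1 array left out. Derl2 without 4PBA became -0.13 with the lettered series alone and ranged from -0.12 to 0.13. The second Derl2 probe with 4PBA became -0.0912 with the lettered series alone and ranged from -0.0301 to 0.0976, and without 4PBA from -0.035 to 0.1636. Derl1 in Derlin-2 KO with vehicle became -0.026 without both doubted arrays and ranged from -0.0316 to 0.0755. Derl2 in Derlin-2 KO with vehicle ranged from -1.001 to 0.24 and its second probe from -1.45 to 0.12, the upper ends being without the Derlin-2 array labelled KO vehicle 2. The cause of these changes was not tested.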
